A study of Homo sapiens with 8 samples.

Results

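The replication-dependent histone genes encode the H1 linker histones and the core histones H2A, H2B, H3 and H4 that package newly copied DNA. Members were taken by symbol from the annotation of the array's probes: H1-1 to H1-5 and every numbered H2AC, H2BC, H3C and H4C symbol, with 1 H2B symbol left out. This gave 59 of the 17687 genes measured, 5 of them H1, 14 H2A, 16 H2B, 9 H3 and 15 H4 genes. Each was read by 1 probe set, and many members have near-identical copies, so a probe set may also report its gene's copies.

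The study measured 8 arrays, 1 for each of 4 treatments in 2 human chronic myeloid leukaemia lines, and asked which expression changes were particular to the combination of its 2 drugs. In KBM5 cells and in K562 cells the groups were the combination (OR21 at 100 nM for 3 days, then IM at 1000 nM), IM alone at 1000 nM, OR21 alone at 100 nM for 3 days, and an untreated control. The source label of the combination arrays prints no number for the OR21 dose. IM is imatinib, an inhibitor of the BCR-ABL1 kinase of these leukaemias, and RNA was taken 24 hours after its addition. OR21 is the demethylating agent OR-2100 of the series title. Each line derives from a single leukaemia, all cells were grown in serum, and every group is 1 array. The repeats used below are therefore 2 array pairs per drug in a line, one in the presence of the second drug and one in its absence. The p-values reflect only the spread between such arrays. For each gene it is pooled over both lines and moderated by the spread of all genes.

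Values are linear intensities per probe set, and differences are on the log2 scale with their standard error (SE). Background was set on each array at the 95th percentile of 612 negative controls and lay between 161 and 263, highest on the KBM5 control array. Between 42 and 48 members were above it on each array, 38 on all 8, 12 on some, and 9 on none (H1-1, H2AC1, H2BC1, H2BC3, H3C3, H3C6, H4C6, H4C7 and H4C16). The erythroid genes HBE1, HBZ, GATA1 and KLF1 were above background on 0 of 4 KBM5 and 4 of 4 K562 arrays, and the myeloid protease gene PRTN3 on 4 of 4 KBM5 and 0 of 4 K562 arrays. MPO, another myeloid marker, passed on 2 of 4 KBM5 arrays. BCR and ABL1 were above background on all 8 arrays, the T cell genes CD3E and CD3G on none, and the epithelial genes EPCAM and KRT19 on 0 of 4 KBM5 and 4 of 4 K562 arrays. The myeloid genes CSF3R and SPI1 passed on 3 and 4 KBM5 arrays, and SPI1 also on 2 of 4 K562 arrays. The B cell gene CD79A passed on 3 of 4 KBM5 and 0 of 4 K562 arrays, and the fibroblast gene COL1A2 on 1 of 4 KBM5 and 4 of 4 K562 arrays.

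As background, these histone genes are transcribed in S phase, when DNA is copied, and shut off outside it. NPAT, switched on by cyclin E and CDK2, activates their transcription at the G1/S boundary. Their mRNAs mostly lack a poly(A) tail and end in a stem-loop that the stem-loop binding protein SLBP holds during processing and translation. The genes lie in clusters, many of them in divergent H2A and H2B pairs that share the DNA between their starts. The members H1-2, H2AC6, H2BC5, H2BC12 and H2BC21 are known also to make polyadenylated transcripts, and how the RNA was primed for labelling is not given in the sources used here.

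RefSeq (GRCh38.p14) gave the 250 bases before the start of 55 members, and H2AC12, H3C11, H4C1 and H4C3 were not matched. Known histone promoter elements were searched on both strands as the letters ATTTGCAT (the octamer), AAACACA (the H1 box) and CCAAT, which can share at most their end letters. The octamer was found in 13 of 16 H2B and 8 of 13 H2A windows and in 0 of 5 H1, 0 of 8 H3 and 0 of 13 H4 windows, against 1.63% of all 35116 RefSeq windows. Windows of close divergent pairs overlap, as for H2AC8 (chr6:26216671-26216920) and H2BC8 (chr6:26216689-26216938). The same copy of a motif or CpG can therefore count for both genes, and the H2A and H2B counts are not independent. The H1 box was found in 5 of 5 H1 windows and in none of the other members' windows, against 4.82% of all windows. CCAAT was in all H1, H2A, H2B and H3 windows and in 3 of 13 H4 windows, against 32.0% of all. The members' windows held a median of 9 CpG dinucleotides (range 3 to 22), against 11 in all windows (0 to 67).

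Windows of 5 members named in the results below are printed as a description. No expression result was tested against their letters. H2BC8 (chr6:26216689-26216938, minus strand) had the largest measured difference with IM, and capitals mark its octamer, which starts 48 bases before the gene's start. H1-2 (chr6:26056471-26056720, minus strand) had the largest measured ratio between the combination and IM alone in KBM5, with its IM value close to background. Capitals mark 2 copies of the H1 box or its reverse complement, which start 119 and 242 bases before the gene's start. H1-5 (chr6:27867589-27867838, minus strand), H4C13 (chr6:27873535-27873784, minus strand) and H3C1 (chr6:26020201-26020450, plus strand) were among the members that differed most between the lines, and capitals mark their 11, 9 and 5 CpG dinucleotides, the sites at which DNA is methylated. A match of letters is a description and not a measured binding site.
H2BC8: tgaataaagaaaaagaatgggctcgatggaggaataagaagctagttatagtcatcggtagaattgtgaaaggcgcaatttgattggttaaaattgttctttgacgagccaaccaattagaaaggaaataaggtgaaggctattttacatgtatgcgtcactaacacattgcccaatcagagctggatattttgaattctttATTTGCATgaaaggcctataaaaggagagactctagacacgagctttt
H1-2: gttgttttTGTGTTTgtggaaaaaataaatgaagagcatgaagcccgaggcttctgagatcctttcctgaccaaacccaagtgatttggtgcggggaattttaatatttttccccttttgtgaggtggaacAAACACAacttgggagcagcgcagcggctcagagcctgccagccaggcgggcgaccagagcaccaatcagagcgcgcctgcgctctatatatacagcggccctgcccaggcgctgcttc
H1-5: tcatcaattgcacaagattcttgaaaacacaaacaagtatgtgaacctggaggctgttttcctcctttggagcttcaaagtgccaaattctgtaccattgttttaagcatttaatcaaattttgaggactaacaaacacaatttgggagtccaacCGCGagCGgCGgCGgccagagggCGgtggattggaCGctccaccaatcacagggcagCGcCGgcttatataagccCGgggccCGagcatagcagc
H4C13: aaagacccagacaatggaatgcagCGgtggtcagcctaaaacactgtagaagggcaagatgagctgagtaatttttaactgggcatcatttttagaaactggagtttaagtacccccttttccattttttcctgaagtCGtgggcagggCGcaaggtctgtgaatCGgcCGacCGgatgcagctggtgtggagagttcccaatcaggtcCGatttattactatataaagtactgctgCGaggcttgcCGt
H3C1: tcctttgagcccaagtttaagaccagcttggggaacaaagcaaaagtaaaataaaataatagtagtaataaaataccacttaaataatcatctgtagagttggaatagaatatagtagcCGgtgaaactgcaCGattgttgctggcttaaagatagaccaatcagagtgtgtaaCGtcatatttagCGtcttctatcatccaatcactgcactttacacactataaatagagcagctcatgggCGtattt

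In KBM5 cells most replication-dependent histone mRNAs were lower with IM. Of the 59 members, 46 were called lower with IM and 0 higher (limma, adjusted p under 0.05), while 10.6% of all genes were called lower and 10.8% higher. The median member difference was -1.85, against 0.03 over all genes, and the values ran from -4.16 to 0.16. In 53 members both arrays with IM were below both arrays without it, which 23.9% of all genes showed. Called members had limma adjusted p between 2.42e-05 and 0.0494, and 2 of them, H2BC3 and H3C3, were at background on all 4 KBM5 arrays. Bulk RNA cannot tell fewer cells in S phase from less histone mRNA per cell.

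**Figure D1:**
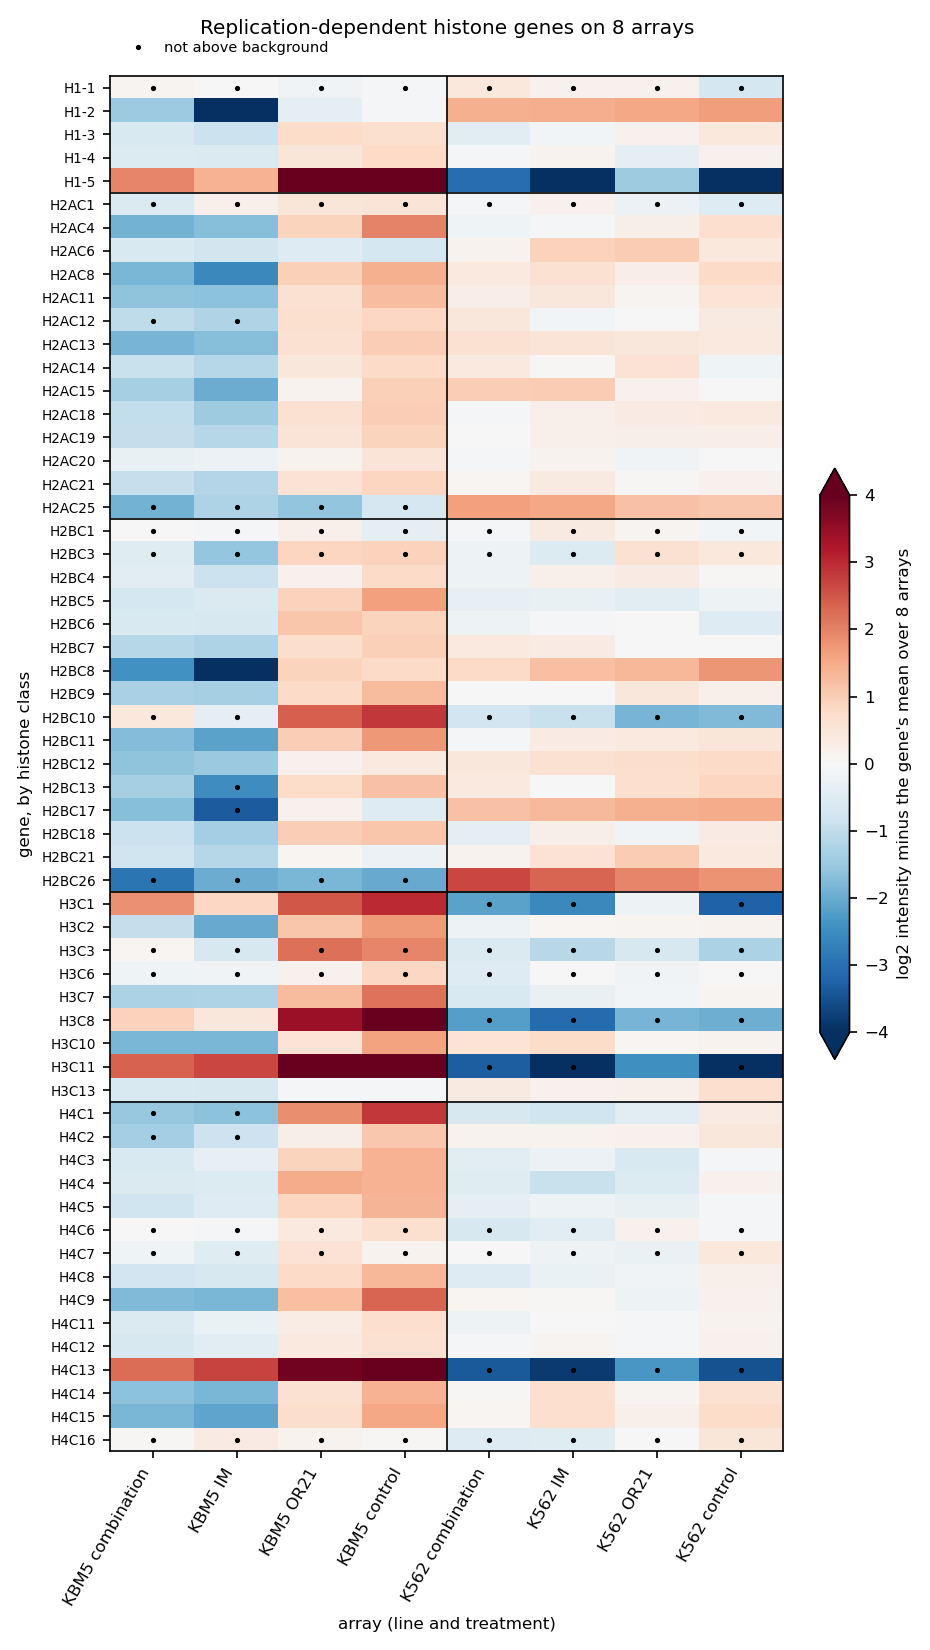
Log2 intensity of the 59 members (rows, by class) on the 8 arrays relative to each gene's mean over the arrays, with KBM5 columns left of K562 columns and each line ordered combination, IM, OR21, control. Colours are clipped at 4 in either direction, and dots mark values not above background. The KBM5 combination and IM columns are bluer than the KBM5 OR21 and control columns in most rows, and H1-5, H3C11, H3C8 and H4C13 are red in KBM5 and blue in K562.

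Among the linker histones, which bind DNA where it enters and leaves the nucleosome, 4 of 5 fell in KBM5 (median -1.43). H1-5 had an intensity of 13588 with IM and 20161 with the combination, against 151007 with OR21 and 184204 in the control. The groups did not overlap, with a difference of -3.33 ± 0.36 (10.1-fold lower, limma adjusted p = 0.000110). Where a pair of values is given below, those with IM are IM alone and then the combination, and those without it are OR21 and then the control. H1-4 had 66918 and 67859 with IM, against 140446 and 173369 without it, a difference of -1.21 ± 0.24 (limma adjusted p = 0.00458). H1-2 and H1-3 also fell, with differences of -2.60 ± 0.53 and -1.43 ± 0.23, and the SE of H1-2 is the larger because its pairs differed, with -4.13 without and -1.08 with OR21. With IM alone H1-2 read 235, just above that array's background of 229. H1-1, known from few tissues such as thymus and testis, was not above background on any array.

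H2A genes encode a partner of H2B in the nucleosome, and 10 of 14 fell in KBM5 (median -1.80). H2AC8 had the largest fall of those measured above background, with an intensity of 3853 with IM and 6486 with the combination, against 44996 with OR21 and 61487 in the control. Its difference was -3.40 ± 0.30, or 10.5-fold lower (limma adjusted p = 3.64e-05). H2AC4 also fell, by 3.23 ± 0.28. H2AC13 and H2AC11, 2 of the 12 members described for their high mean intensity, also had groups that did not overlap. H2AC13 had 19313 and 17273 with IM, against 97182 and 125352 without it, a difference of -2.60 ± 0.23. H2AC11 had 18645 and 19146 with IM, against 88082 and 137713 without it, a difference of -2.54 ± 0.26. Limma adjusted p was 3.82e-05 for H2AC13 and 7.89e-05 for H2AC11.

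H2AC14 had 30496 and 36718 with IM, against 91951 and 116585 without it (-1.63 ± 0.26, limma adjusted p = 0.00116). H2AC18 and H2AC19 are near-identical copies on chromosome 1 whose probe sets may read the same transcripts, and they moved alike. H2AC18 had 15772 and 21417 with IM, against 64878 and 82405 without it (-1.99 ± 0.26, limma adjusted p = 0.000390), and H2AC19 had 16319 and 18584 with IM, against 51173 and 67372 without it (-1.75 ± 0.25, limma adjusted p = 0.000619). H2AC15 and H2AC21 also fell, with -2.21 ± 0.33 and -1.75 ± 0.24. H2AC12 ended at background on both IM arrays and was at least 2.62-fold lower. At the other end, H2AC6 had 1816 and 1969.7 with IM, against 2096 and 1852 without it (-0.06 ± 0.31), and H2AC20, with -0.58 ± 0.23, did not pass the test (limma adjusted p = 0.112).

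H2B genes had 14 of 16 members called lower (median -1.96). H2BC8, whose promoter is printed above, had the largest fall of the members above background on all 4 KBM5 arrays. Its intensity was 334 with IM and 1187 with the combination, against 11753 with OR21 and 10788 in the control, a difference of -4.16 ± 0.35 or 17.9-fold (limma adjusted p = 2.86e-05). The pair without OR21 differed by 32.3-fold and the pair with OR21 by 9.90-fold. H2BC11 had 2166 and 2866 with IM, against 19065 and 32154 without it, a difference of -3.31 ± 0.30 (limma adjusted p = 3.84e-05). H2BC12 and H2BC18 had smaller falls, and the groups overlapped in neither. H2BC12 had 76906 and 69568 with IM, against 238218 and 281409 without it (-1.82 ± 0.23, limma adjusted p = 0.000304), and H2BC18 had 30203 and 43214 with IM, against 154184 and 168049 without it (-2.16 ± 0.25, limma adjusted p = 0.000186).

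H2BC10 had 53.3 and 92.4 with IM, against 367 and 497 without it, where both arrays with IM were at background, so it was at least 2.03-fold lower (limma adjusted p = 0.000180). H2BC13 and H2BC17 cleared background with the combination but not with IM alone, and their differences of -2.86 ± 0.35 and -2.36 ± 0.27 are not exact in size. H2BC9, H2BC7, H2BC5, H2BC6 and H2BC4 fell as well, with -2.33 ± 0.25, -2.01 ± 0.24, -1.91 ± 0.25, -1.63 ± 0.25 and -1.12 ± 0.30. H2BC21 was the weakest call, at -0.89 ± 0.28 (limma adjusted p = 0.0494). H2BC1 and H2BC26 were the H2B genes not called, both at background in KBM5. H2BC3 was called but was not above background on any array.

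Of the 9 H3 genes 6 fell (median -2.35), and of the 15 H4 genes 12 fell (median -1.74). H3C3, whose value is the H3 median, was one of the 6 called but was not above background on any array. H3 and H4 together form the inner tetramer of the nucleosome. H3C10 had 377 and 373 with IM, against 1970.3 and 4057 without it, a difference of -2.92 ± 0.28 (limma adjusted p = 5.98e-05). H3C8, H3C7, H3C2 and H3C11 also fell, with differences of -3.16 ± 0.32, -2.98 ± 0.27, -2.89 ± 0.34 and -2.20 ± 0.24. H3C1 and H3C13 were above background on all 4 KBM5 arrays without passing, at -1.42 ± 0.51 (limma adjusted p = 0.0797) and -0.54 ± 0.25 (0.174). The SE of a gene is shared by both lines. In K562 the pairs of H3C1 had 0.63 without and -1.94 with OR21, with 1 of 4 arrays above background.

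H4C1 had 124 with IM and 137 with the combination, against 1429 with OR21 and 2795 in the control. Both arrays with IM were at background, and the gene was at least 9.48-fold lower, with the smallest limma adjusted p of the members (2.42e-05). H4C9 had 469.9 and 495 with IM, against 3848 and 8396 without it, a difference of -3.56 ± 0.30 or 11.8-fold (limma adjusted p = 2.99e-05). H4C14 and H4C15 are near-identical copies, as H2AC18 and H2AC19 are, and had -2.74 ± 0.27 and -3.08 ± 0.29. H4C4, H4C8, H4C13 and H4C12 had -2.01 ± 0.29, -1.75 ± 0.24, -1.58 ± 0.25 and -1.04 ± 0.23, and H4C2, at background with IM, was at least 1.53-fold lower. H4C5, H4C3 and H4C11 had smaller falls than H4C1 and H4C9. H4C5 had 70214 and 57313 with IM, against 183257 and 257443 without it (-1.78 ± 0.23, limma adjusted p = 0.000371), and H4C3 had 59236 and 48516 with IM, against 137509 and 195704 without it (-1.61 ± 0.24, limma adjusted p = 0.000790). H4C11 had 40749 and 32686 with IM, against 60132 and 78111 without it (-0.91 ± 0.23, limma adjusted p = 0.0165). The call of H4C11 was lost in 5 alternative settings, with limma adjusted p between 0.0562 and 0.0848.

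By position, all 16 members of the downstream chromosome 6 groups were called lower in KBM5: 5 of 5 from H2BC11 to H2AC12 (median -2.54) and 11 of 11 from H2BC13 to H2BC17 (median -2.21). In the first chromosome 6 group, from H2AC1 to H4C8, 23 of 31 were called (median -1.78), and 8 of the 9 members at background on all 8 arrays lie there. These are not the same as the uncalled genes. H2BC3 and H3C3 were at background yet called, while the uncalled H2AC6 and H3C1 were above background on every KBM5 array. On chromosome 1, 7 of 9 members from H2BC18 to H2AC21 were called (median -1.75), while H2AC25 and H2BC26, which lie apart from them, were at background in KBM5. The chromosome 12 gene H4C16 was at background throughout. These groups are neighbours in the RefSeq GRCh38.p14 order more than 500000 bases from the next member.

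Divergent pairs share the DNA between their starts, and the values of both genes of a pair are set side by side here without a test of their likeness. H2BC8 and H2AC8 had -4.16 and -3.40 with IM in KBM5, H2BC11 and H2AC11 had -3.31 and -2.54, and H2BC13 and H2AC13 had -2.86 and -2.60. H3C7 and H2BC9 had -2.98 and -2.33. The pair H2BC4 and H2AC6 had -1.12 and -0.06, and H2BC21 and H2AC20 had -0.89 and -0.58. The remaining pairs were at background in KBM5: H2AC1 and H2BC1, with -0.70 and 0.04, and H2AC25 and H2BC26, with -0.43 and -0.53. Of the 5 members known also to make polyadenylated transcripts, 4 fell in KBM5, with H1-2 at -2.60, H2BC5 at -1.91, H2BC12 at -1.82, H2BC21 at -0.89 and the uncalled H2AC6 at -0.06, and their median of -1.82 was close to that of all members.

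In K562 cells the same dose of IM did not give a called change in any member. Limma called 0 of 59 in either direction, with 11 at an unadjusted p under 0.05 and a lowest adjusted p of 0.0531, although 8.05% of all genes were called lower and 5.34% higher. The median member difference was -0.16, within a range of -0.90 to 1.00, and both arrays with IM were below both without in 20 members, against 25.7% of all genes. H2BC8 had 14579 and 10893 with IM, against 16219 and 21635 without it in K562, with a difference of -0.57 ± 0.35 (limma adjusted p = 0.344). H2AC8, which fell 10.5-fold in KBM5, had 35088 and 30091 with IM, against 27657 and 39329 without it in K562, where the groups overlapped. H2BC12 had 326753 and 290997 with IM, against 346851 and 361823 without it, and H2AC13 had 90648 and 96863 with IM, against 86905 and 83510.3 without it. A p that misses the threshold does not show that these levels were equal.

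The difference between the lines was tested itself, as IM in KBM5 minus IM in K562. It was called for 38 of 59 members, all lower in KBM5, with limma adjusted p between 0.000685 and 0.0415, where 4.9% of all genes were called lower and 5.25% higher. The median of this difference over the members was -1.64. Among them were H4C9 at -3.62 ± 0.43, H2BC8 at -3.59 ± 0.50, H3C10 at -3.43 ± 0.40 and H2AC8 at -3.37 ± 0.42. H2BC10 and H4C1 were also called, but neither cleared background in KBM5 once IM was added, and H2BC10 did so on none of the 4 K562 arrays, so the sizes of their differences are not exact. H3C10 had 2208 and 1944 with IM, against 1422 and 1472 without it in K562, opposite in sign to KBM5 though not called there. H4C9 had 1716 and 1752 with IM, against 1447 and 1904 without it in K562, and H4C1 226 and 248 with IM, against 287 and 492 without it. By class the difference was called for 2 of 5 H1, 10 of 14 H2A, 11 of 16 H2B, 6 of 9 H3 and 9 of 15 H4 genes. The H1 genes called were H1-5 at -2.45 ± 0.50 and H1-4 at -1.34 ± 0.34. Leaving out a K562 array lowered the count of 38 to 19 without the control or the IM array and to 22 without the OR21 or the combination array.

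**Figure D2:**
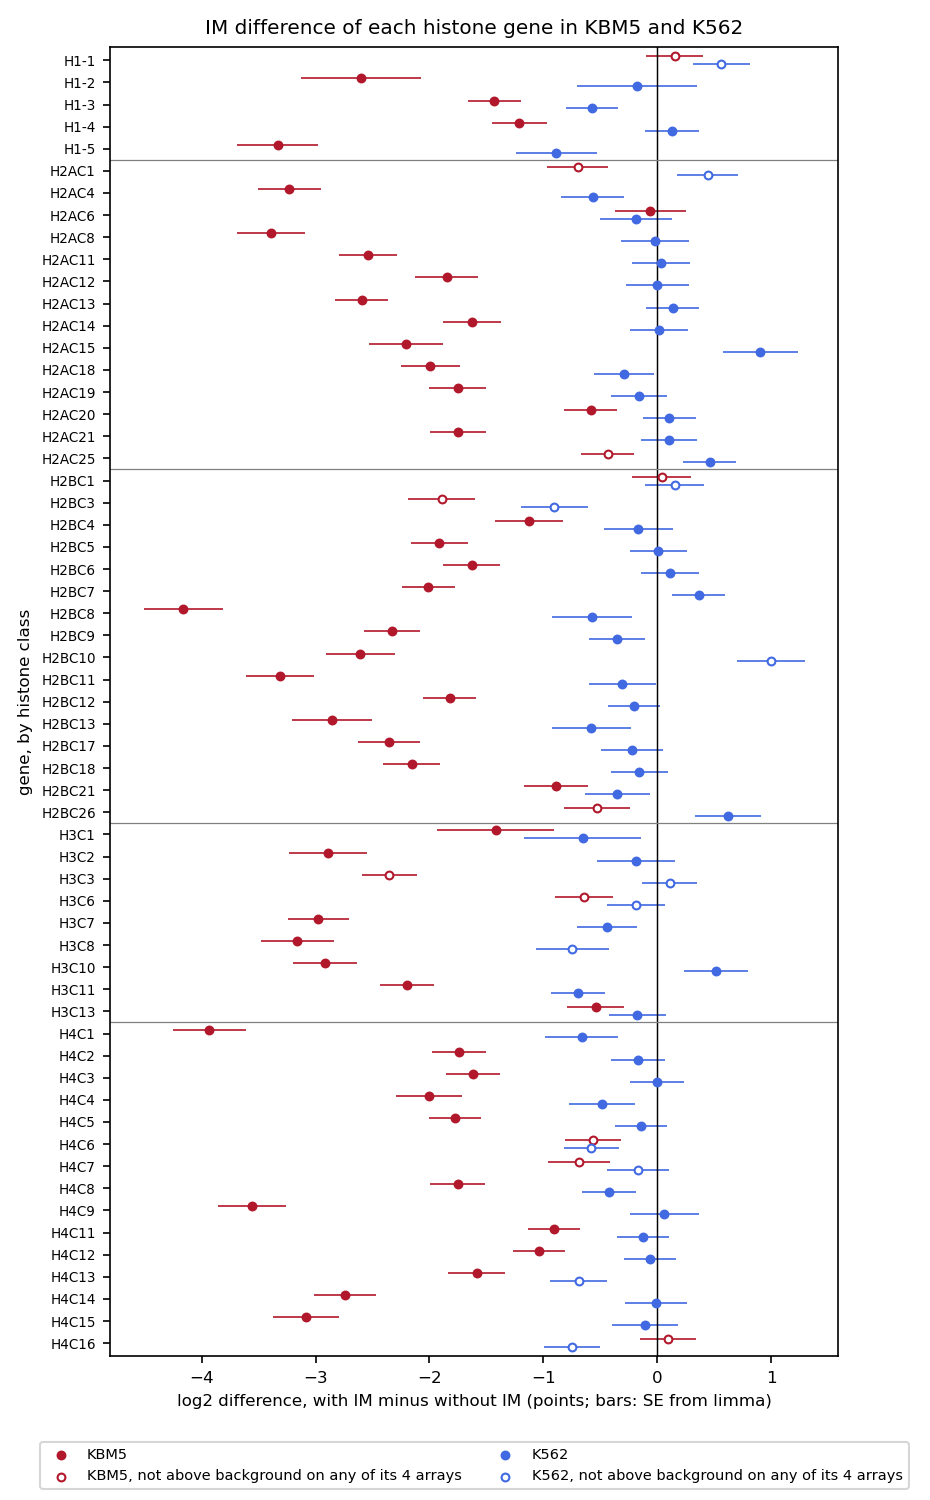
Log2 difference with IM minus without IM of each member (points) in KBM5 and in K562, with bars of 1 SE from limma. Hollow points were not above background on any of the line's 4 arrays. KBM5 values reach -4.16 (H2BC8), and K562 values lie between -0.90 and 1.00.

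Genes around histone supply were also lower with IM in KBM5, in lists chosen with earlier results of these data known. The shares of all genes to set beside each list are 10.6% called lower and 10.8% higher in KBM5. In K562 they are 8.05% lower and 5.34% higher. The K562 falls in the S phase and chaperone lists are near that share. Of 29 measured genes of DNA synthesis in S phase, 28 fell in KBM5 (median -3.19), and in K562 3 fell and 1 rose (median -0.39). LIG1, E2F1 and POLD1 were at background on all 4 KBM5 arrays, so falls counted there were not in detected genes alone. CDC45, a helicase cofactor, was at least 31.3-fold lower with IM in KBM5, and RRM2, which makes deoxynucleotides, had 146 and 529 with IM, against 9529 and 8824 without it there. In K562, RRM2 had 3959.7 and 2969 with IM, against 6122 and 5989 without it, and was not called. The S phase genes moved in the same line as the histones, and their part in the histone result was not tested. Of 21 measured histone chaperone and chromatin assembly genes, 14 fell and 1 rose in KBM5 (median -1.57), and 2 fell in K562 (median -0.06). The KBM5 median includes 2 genes, IPO4 and TONSL, that were at background on all 4 KBM5 arrays. Those that fell in KBM5 included NASP at -2.75 ± 0.24, MMS22L at -2.41 ± 0.27 and CHAF1B, which was at background with IM and at least 1.89-fold lower.

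Of 20 measured genes of histone mRNA transcription and processing, 9 fell and 2 rose in KBM5 (median -0.79), and 5 fell and 1 rose in K562 (median -0.25). At background on all 4 KBM5 arrays were 3 of the 20. SLBP, the stem-loop binding protein, had 749 with IM and 887 with the combination, against 2700 with OR21 and 2148 in the control in KBM5. In K562, SLBP had 1500 with IM and 1340.3 with the combination, against 2464 with OR21 and 2549.9 in the control. It fell in both lines, with differences of -1.56 ± 0.23 in KBM5 (limma adjusted p = 0.000791) and -0.82 ± 0.23 in K562 (adjusted p = 0.0398). NPAT had 126 and 174 with IM, against 340.3 and 235 without it in KBM5, where it was above background on 1 of 4 arrays, that with OR21. It was called lower there, at -0.93 ± 0.24 (limma adjusted p = 0.0167), a size that is not exact, while in K562 it had -0.22 ± 0.24 (limma adjusted p = 0.615). CASP8AP2, a partner of NPAT, fell by 1.09 ± 0.27 in KBM5 and had 0.41 ± 0.27 in K562 (limma adjusted p = 0.395). The cyclin E genes ended at background in KBM5, CCNE2 at least 3.87-fold and CCNE1 at least 3.50-fold lower, and neither was called in K562. GON4L rose by 1.30 ± 0.24 and TUT7, a uridyltransferase of histone mRNA decay, by 0.88 ± 0.24 in KBM5.

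Replication-independent histone genes, which make variants outside S phase too, had 5 of 10 measured genes lower in KBM5 (median -0.75) and 2 lower in K562 (median -0.55). At background on all 4 arrays of a line were 3 of the 10, in KBM5 and in K562. H2AZ1 fell in both lines, with -2.93 ± 0.24 in KBM5 and -0.90 ± 0.24 in K562. H2AX, whose gene also makes a stem-loop mRNA, fell by 2.82 ± 0.25 in KBM5 and was not called in K562, at -0.43 ± 0.25 (limma adjusted p = 0.315). The median intensity of the positive-control probe sets was 4334 and 4918 on the KBM5 arrays with IM against 6087 and 5980 without it, and 5072 and 5128 against 6962 and 6787 in K562. The drop was seen in both lines, and its part in the results was not tested.

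**Figure D3:**
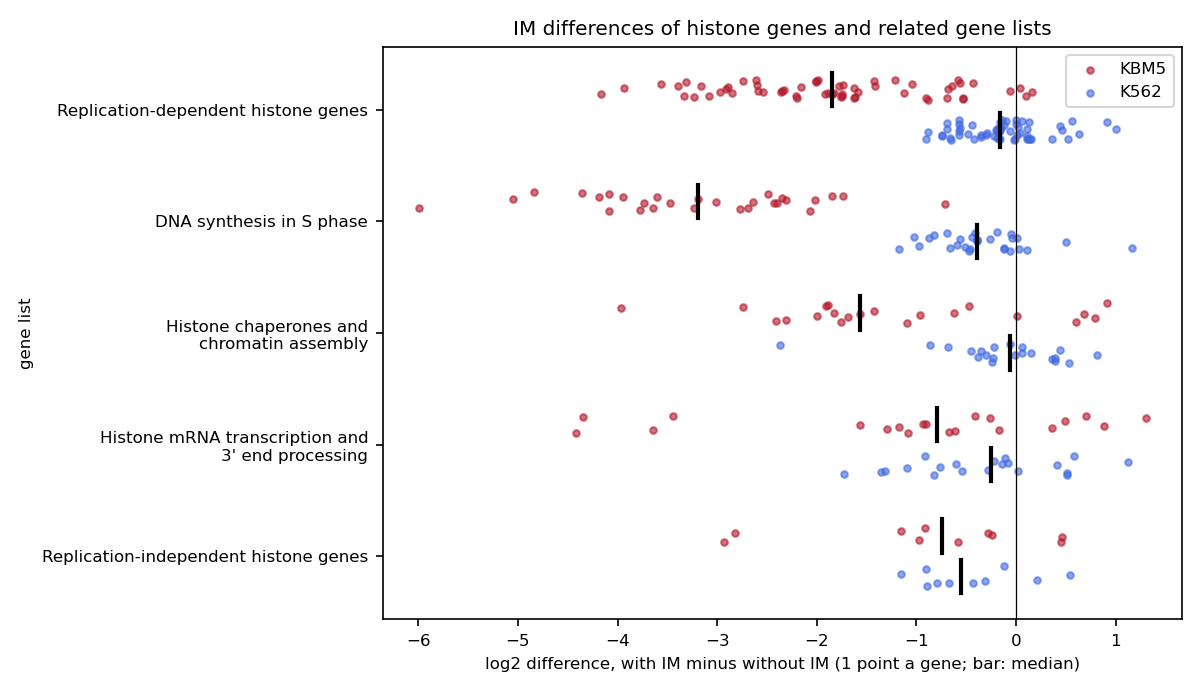
Log2 difference with IM minus without IM for the genes of each list (points) in KBM5 (red) and K562 (blue), with black bars at the medians. Member medians were -1.85 in KBM5 and -0.16 in K562, and the S phase DNA synthesis list had -3.19 and -0.39.

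Some histone genes were near background in one line only. Both KBM5 arrays without IM were above both K562 arrays without IM in 39 members (34.3% of all genes) and below in 9 (29.9%). Over all 4 treatments, every KBM5 array was above every K562 array in 6 members: H1-5, H3C11, H4C13, H3C1, H3C8 and H2BC10. That was 10.2% of members against 14.6% of all genes, so such separation was not more frequent among the histone genes. H1-5 had 184204 in the KBM5 control and 247 in the K562 control, a 746-fold ratio. H3C11 had 43548 against 81.5, at least 270-fold with the K562 side at background. These ratios compare 1 array with 1 array and carry no test.

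H4C13 had 2331 in the KBM5 control against 10.9 in the K562 control, at least 14.5-fold. H3C1 had 4185 against 56.8 (at least 26.0-fold), H3C8 3680.4 against 50.5 (at least 22.9-fold), and H2BC10 497 against 20.3 (at least 3.09-fold). H1-5, H3C11 and H4C13 are consecutive among the measured members of chromosome 6. Their measured neighbours were detected in both lines: H2AC15 had 2183 in the KBM5 control against 1139 in the K562 control, and H2BC17 had 732 against 2932. H3C8 and H2BC10 are also neighbours of each other. DNA methylation and copy number were not measured here.

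**Figure D4:**
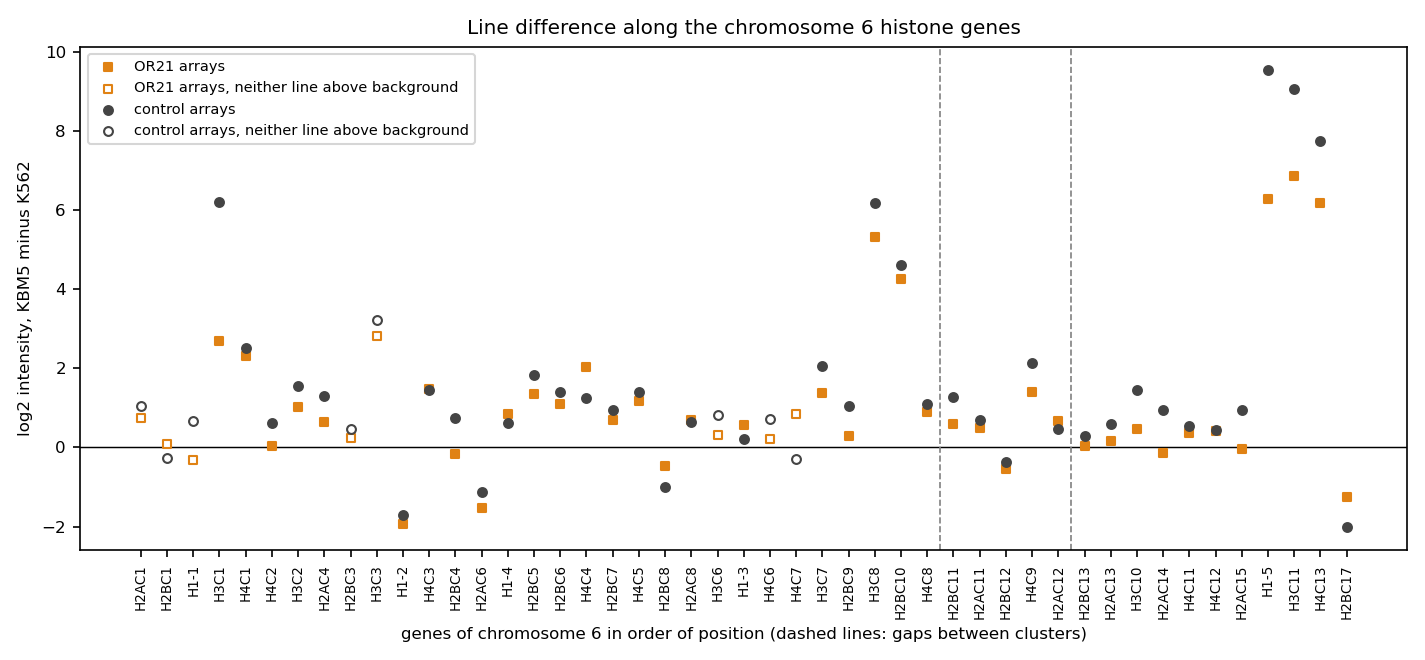
Log2 intensity of KBM5 minus K562 on the control and OR21 arrays for the chromosome 6 members in order of position, with dashed lines at gaps between groups. Hollow points were above background in neither line. H1-5, H3C11 and H4C13 are consecutive and stand well above 0. Heights of points whose K562 side was at background, as for H3C11, H4C13, H3C1, H3C8 and H2BC10 on the control arrays, are not exact.

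In 8 members every KBM5 array was below every K562 array (13.6% of members, 15.4% of all genes): H2AC25, H2BC26, H1-2, H2BC17, H2AC6, H2BC12, H3C13 and H2BC21. Of these, H1-2, H2AC6, H2BC12, H3C13 and H2BC21 were above background on every array of both lines. This separation, too, was not more frequent among members than among all genes. H2AC25 and H2BC26, which RefSeq also lists under the older names H2AW and H2BU1, form a divergent pair on chromosome 1 and were above background on 0 of 4 KBM5 and 4 of 4 K562 arrays. The list of replication-independent histone genes used above held these older names. Both genes thus count as members here by symbol, and as unmeasured in that list. H2AC25 had 139.6 in the KBM5 control against 474 in the K562 control, and H2BC26 had 33.0 against 464. Separation over all treatments includes arrays with IM, on which KBM5 members were low, so H1-2 is given without it: 3262 and 4098 on the KBM5 OR21 and control arrays, against 12419 and 13424 in K562.

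With OR21 no member passed the test in K562, and the largest differences were in genes at or near background in that line. Limma called 0 of 59 members, with 6 at an unadjusted p under 0.05, and 0.0905% of all genes were called higher and 0.0% lower. H1-5 had the largest difference of the members above background on both arrays with OR21, at 2.22 ± 0.36 (4.64-fold, limma adjusted p = 0.0766). Its K562 intensity was 1949 with OR21 and 621 with the combination, against 247 in the control and 227 with IM. Both arrays with OR21 were above both without it, both pairs were over 2-fold and both arrays with OR21 were above background, which 1 of 59 members and 0.124% of all genes showed. Even so, the OR21 array of K562 was 77.5-fold below that of KBM5.

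H3C11 had 251 with OR21 and 139 with the combination in K562, against 81.5 in the control and 56.3 with IM, and was above background only on the OR21 array. Its difference was 1.46 ± 0.24 (limma adjusted p = 0.0790). H3C1 likewise passed background only with OR21 alone, at 465 against 56.8 in the control, at least 2.88-fold, and its combination array read 121 against 87.9 with IM. H4C13, which lies beside H3C11, had 24.4 with OR21 and 10.9 in the control, both at background. Between the OR21 and control arrays 3 members were at least 2-fold higher by measured value and above background on the OR21 array (0.65% of all genes) and 0 lower (0.254%), namely H3C1, H1-5 and H3C11. With its control at background, the ratio of H3C11 is bounded only at 1.56-fold or more, which is under the 2-fold cut. Among members above background with the combination, H1-5 was also the 1 at least 2-fold higher with the combination than with IM in K562 (0.413% of all genes), at 2.73-fold. With a variance trend and robust moderation H1-5 and H3C11 were called (limma adjusted p = 0.0198 and 0.00735), and with a common OR21 by IM term H1-5 was (0.0425).

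**Figure D5:**
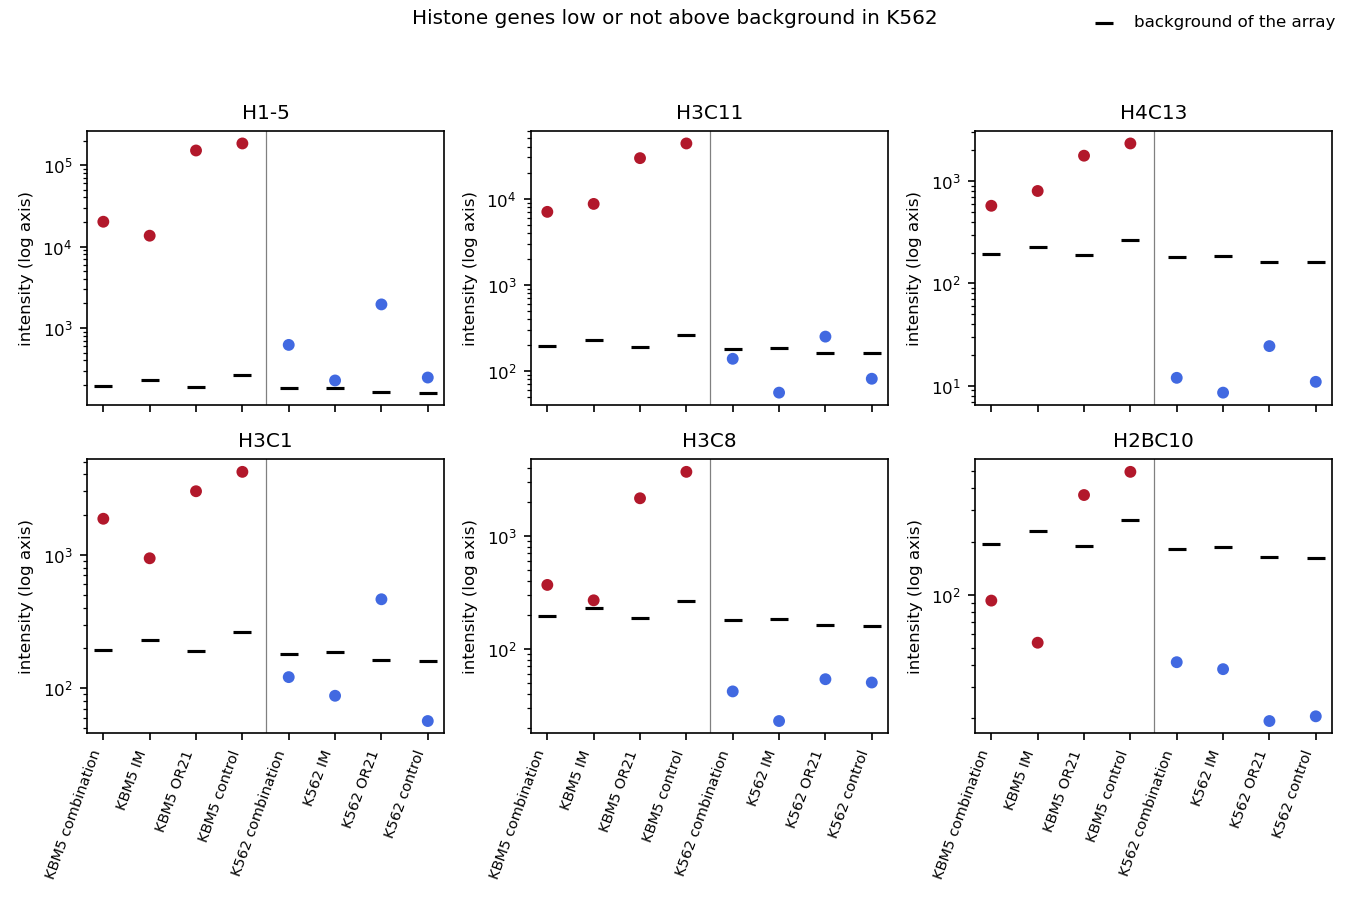
Intensity (log axis) of H1-5, H3C11, H4C13, H3C1, H3C8 and H2BC10 on each of the 8 arrays, 1 point an array, with dashes at each array's background. All KBM5 points lie above all K562 points in each gene, and the K562 OR21 point is the highest K562 point of H1-5, H3C11 and H3C1.

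In KBM5, OR21 gave no called member either (0 of 59, with 6 at an unadjusted p under 0.05, where limma called 0.486% of all genes higher and 0.0565% lower). The difference between the lines, OR21 in KBM5 minus OR21 in K562, was also called for 0 of 59, with 6 at an unadjusted p under 0.05 and 0.0452% of all genes called higher and 0.0565% lower. OR21 alone against the control was at least 2-fold lower in 3 members (0.447% of all genes) and at least 2-fold higher in 0 (1.32%). They were H4C9, with 3848 against 8396, H2AC4, with 6814 against 14736, and H3C10, with 1970.3 against 4057. These are single arrays with no repeat.

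Some histone genes stood higher in KBM5 with the combination than with IM alone. The combination was at least 2-fold above IM alone by measured value, and above background, in 5 members (2.42% of all genes) and at least 2-fold below in 0 (0.605%). H1-2 had 1542 with the combination against 235 with IM, 6.57-fold. That IM value lay just above the array's background of 229, so the size of this ratio is uncertain. H2BC8 had 1187 against 334, 3.56-fold, and H3C2 had 2873 against 1395, 2.06-fold. H2BC17, at 319.7 against 103, and H2BC13, at 247 against 111, were at background with IM alone, which bounds their ratios at 1.40-fold and 1.08-fold or more. All 5 remained below their KBM5 control, where H1-2 had 4098 and H2BC8 10788.

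IM minus control was lower than the combination minus OR21 in 49 of 59 members in KBM5 (49.7% of all genes) and in 26 of 59 in K562 (51.3%). With 1 array a group this departure from additivity is also the residual of the fit and has no test of its own. The OR21 differences of H1-2, H2BC17 and H2BC8 in KBM5 were 1.19 ± 0.53, 1.16 ± 0.27 and 0.98 ± 0.35, with limma adjusted p of 0.388, 0.117 and 0.300. For H1-2 the pairs had opposite signs, 2.72 with and -0.33 without IM, and the pair with IM includes its value close to background.

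Taking the lines as repeats of a treatment, no member was called for the combination. Against control the median member difference was -0.94, with 0 of 59 called and 14 at an unadjusted p under 0.05, where limma called 0.0622% of all genes higher and 0.136% lower. Against OR21 the median was -0.95, with 0 called, 5 at an unadjusted p under 0.05 and 0.0509% of genes higher and 0.17% lower. Against IM the median was -0.01, with 0 called, 0 at an unadjusted p under 0.05 and 0.0% of genes in either direction. These medians moved with 1 array left out. The treatment of that array then rests on the other line alone, adjusted by the line term, so the shifts also carry differences between the lines. Against control the median was -1.57 without the K562 combination array and -1.72 without the K562 control array, and -0.43 without the KBM5 control array. Against OR21 it was -0.44 without the KBM5 combination array and -0.40 without the KBM5 OR21 array. Against IM it was -0.46 without the K562 combination array and 0.69 without the K562 IM array, and 0.52 without the KBM5 combination array and -0.61 without the KBM5 IM array. In this model the spread is the difference in response between KBM5 and K562, which the test above called for 38 members.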

How the data were processed

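Total RNA of KBM5 and K562 cells was labelled with biotin and read on 8 single-colour arrays, per the labels. The authors deposited 1 linear intensity per probe set, while how it was summarized and normalized was not stated there. Gene names came from the supplied probe annotation, in which 17709 of 24351 probe sets carried 1 symbol, giving 17687 genes; a gene with several probe sets took the one with the highest mean. Position and promoter windows came from RefSeq (GRCh38.p14).

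The log2 of each intensity was analysed as it stood, with no added normalization. A fold with one side at background is a bound ("at least"), computed against that background. Limma 3.58.1 (R 4.3.3) was fitted to all 17687 genes, with Benjamini-Hochberg adjustment over them and calls at 0.05. One model had a baseline, an OR21 term and an IM term per line (2 residual and 8.309 prior degrees of freedom), so the 2 array pairs of a drug served as repeats, which assumes additive log2 effects. The other used line plus treatment (3 residual and 3.765 prior degrees of freedom). Between them they gave 9 contrasts. Precision is limited by how few arrays there are. The procedure was tested on simulated data, and its recovery there rested on the assumed noise.

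The members and gene lists were chosen with earlier results of these data known. Members described in full were the 12 with the highest mean intensity and, in each contrast within lines, up to 6 called rises and 6 called falls with the largest differences; other members are named by range, class or neighbour, or as values of a count. Of each other list up to 4 called genes were named, with SLBP, NPAT and CASP8AP2. The 1 H2B symbol left out is not reported here. Alternatives were quantile normalization, median centring, an offset of 16 in the log, the brighter genes alone, trend and robust moderation, probe sets averaged per gene, a common OR21 by IM term, and each array left out in turn.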

Additional observations from a re-analysis of the deposited data

Results flagged for a closer look

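The test of IM in KBM5 minus IM in K562 singled out 38 members as different between the lines (limma, adjusted p under 0.05), all lower in KBM5. Among the members described in full, this difference was -3.62 for H4C9, -3.59 for H2BC8, -3.43 for H3C10 and -3.37 for H2AC8 on the log2 scale. It was -3.01 for H2BC11, -2.73 for H2AC13, -2.58 for H2AC11, -2.45 for H1-5 and -2.00 for H2BC18. Smaller differences of -1.70 for H2AC18, -1.64 for H2AC14, -1.64 for H4C5, -1.62 for H2BC12, -1.61 for H4C3, -1.59 for H2AC19 and -1.34 for H1-4 also passed. The fitted differences of -3.61 for H2BC10 and -3.27 for H4C1 are not exact in size, since neither gene cleared background in KBM5 once IM was added, and H2BC10 did so on none of the 4 K562 arrays. H2AC18 and H2AC19 may be read by each other's probes and are not independent. With 1 array left out, 9 of these members (H1-4, H1-5, H2AC14, H2AC18, H2AC19, H2BC12, H2BC18, H4C3 and H4C5) lost the call without the K562 control or IM array, 7 without the K562 OR21 or combination array, and 4 without the KBM5 control or IM array.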

How the results depend on the processing

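The count of members lower with IM in KBM5 was 46, stayed between 44 and 46 in the alternatives over all genes, was 43 of 49 with the brighter genes alone, and lay between 44 and 47 with 1 array left out; 42 members were called in every setting other than the brighter genes alone. The difference between lines had 38 members, 37 to 41 in the other settings, and 19 to 40 with 1 array left out: 19 without the K562 control or IM array, 22 without the K562 OR21 or combination array, 33 without the KBM5 control or IM array. For IM in K562, 0 members became 1 after quantile normalization (H4C16), 1 with the brighter genes alone (H3C11), 3 with trend and robust moderation (H2AC15, H2BC10, H3C11), 2 with a common OR21 by IM term (H2BC10, H2BC3), and 0 to 4 with 1 array left out, 4 without any one KBM5 array. For OR21 in K562, 0 became 2 with trend and robust moderation, 1 with the common term (H1-5), and 0 to 2 with 1 array left out. For OR21 in KBM5, 0 became 1 with trend and robust moderation (H2BC17) and 0 to 3 with 1 array left out, 3 (H1-2, H2BC17, H2BC8) without the KBM5 control or OR21 array. For the difference in OR21 between lines, 0 became 1 with trend and robust moderation (H3C11) and 0 to 2 with 1 array left out. The combination against control, IM or OR21 in both lines had 0 members in every setting. In no setting did a described value turn its sign past the threshold, and the causes of these changes were not tested.

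Counts over all genes moved more where they were small: OR21 in K562 had 16 genes called (4 to 32 in other settings), OR21 in KBM5 96 (3 to 243), their difference 18 (2 to 43), the combination against control 35 (0 to 54) and against OR21 39 (20 to 45). With 1 array left out, IM in K562 had 454 to 3201 genes against 2368, and the difference in IM 611 to 1804 against 1796, OR21 in K562 9 to 31, OR21 in KBM5 54 to 157, the difference in OR21 6 to 52, and each comparison of the combination 0 to 2. No paired analysis was possible because each line and treatment had 1 array, so the groups shared a single replicate number and no replicate block could be formed beyond the drug pairs and the line term already in the models. Values near background (161 to 263) and the number of arrays limit what small changes could be seen.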
